A study of Mus musculus with 8 samples.

Results

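The imprinted growth genes are 10 genes chosen by name from the table of sorted cardiac progenitor cells, namely H19, Igf2, Igf2r, Cdkn1c, Peg3, Dlk1, Meg3, Plagl1, Grb10 and Mest. All 10 were found among the 16302 genes of the table and were read in all 8 libraries, and all 10 passed the filter on low values. The second heart field (SHF) region was taken from mouse embryos at embryonic day 9.5, and RNA of sorted cells was sequenced in order to compare the posterior SHF (pSHF) with the domain of an anterior heart field enhancer. GFP-positive (GFP+, n = 3) and GFP-negative (GFP-, n = 1) cells came from Hoxb1GFP embryos, in which a green reporter sits in the Hoxb1 locus. Tomato-positive (Tomato+, n = 3) and Tomato-negative (Tomato-, n = 1) cells came from Mef2c-Cre;RosatdT embryos, in which the Mef2c-AHF-Cre enhancer drives a recombinase that switches on tdTomato in those cells and their descendants. Embryos of a line were pooled before sorting, and the methods appear to give the Hoxb1GFP allele the symbol Hoxb1-, so the GFP line may carry an altered Hoxb1 allele that the Tomato line does not. The GFP+ and Tomato+ cells also came from different lines, so a difference between lines and a difference between cell populations cannot be told apart.

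Imprinted genes are expressed mainly or only from the allele of a single parent, because DNA methylation laid down in egg or sperm marks the control region of each cluster. Many of them set the growth of the embryo and placenta. Several paternally expressed genes, such as Igf2, drive growth, and several maternally expressed genes, such as Igf2r, Cdkn1c and Grb10, restrain it. The reads do not tell the parental alleles apart, so each value is the sum over both alleles.

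A few sequences show how the members are built as transcripts and promoters. Of the members, H19, Igf2, Meg3 and Mest carry microRNAs inside the gene, and the libraries measure the host transcript, not the mature microRNA. The mature sequences of the H19 and Mest microRNAs, as examples of a member with a large and a small change, are given from RefSeq on GRCm38.p6 with the seed, bases 2 to 8, in capitals, since the seed sets the targets. The 4 seeds differ from each other.
mmu-miR-675-5p (in H19): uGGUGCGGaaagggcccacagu
mmu-miR-675-3p (in H19): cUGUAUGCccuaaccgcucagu
mmu-miR-335-5p (in Mest): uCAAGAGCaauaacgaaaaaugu
mmu-miR-335-3p (in Mest): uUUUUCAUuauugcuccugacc

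The RefSeq promoter windows, which run from 250 bases before to 50 bases after a start site, matched 8 members with 15 windows. H19 and Cdkn1c were not matched. The windows were searched on both strands for GGGGCCCC, a site known to be bound by the protein of the member Plagl1, and for TATAAA, the TATA box. GGGGCCCC was found in 1 of the 15 member windows, that of Peg3 (chr7:6730370-6730669, minus strand), and in 1.08% of all 32851 windows. TATAAA was found in 1 of the 15, the first window of Meg3 (chr12:109540746-109541045, plus strand), and in 13.6% of all windows. In the Meg3 window the matches on the 2 strands overlap each other. Both windows are shown 5′ to 3′ on the strand of the gene with the matched letters in capitals.
Peg3: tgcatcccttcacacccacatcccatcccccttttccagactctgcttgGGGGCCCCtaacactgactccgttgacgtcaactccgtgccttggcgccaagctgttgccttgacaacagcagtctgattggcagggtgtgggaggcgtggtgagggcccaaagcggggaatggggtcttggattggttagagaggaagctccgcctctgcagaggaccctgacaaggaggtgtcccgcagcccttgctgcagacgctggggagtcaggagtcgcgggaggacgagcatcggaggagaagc
Meg3: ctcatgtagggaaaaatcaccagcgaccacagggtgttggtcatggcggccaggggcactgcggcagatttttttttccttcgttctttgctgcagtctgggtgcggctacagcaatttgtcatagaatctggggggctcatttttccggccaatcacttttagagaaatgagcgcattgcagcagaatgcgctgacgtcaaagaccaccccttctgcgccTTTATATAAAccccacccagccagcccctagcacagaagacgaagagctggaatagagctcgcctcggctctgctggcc

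The 8 libraries held 22668185 to 41597870 reads, of which 12765045 to 27249149 lay outside mitochondrial genes. Mitochondrial reads made up 51.4% of the Tomato- library and 42.4% and 43.7% of GFP+ and Tomato+ replicate 2. In the remaining libraries they made up 32.7% to 34.5%. Replicates 1 and 3 of each positive group were near copies of each other, with a chi-square per degree of freedom of 2.35 and 2.38, whereas pairs with replicate 2 gave 72.4 to 93.0. The paper calls the libraries of a group biological replicates and the labels do not say which embryos each came from. With near copies among them p-values may reflect technical spread, and each call is also given with replicates 1 and 3 averaged where that ends it. Hoxb1, checked first because its reporter marks the GFP line, had 720 to 986 normalized reads in GFP+ cells, 60.8 in GFP-, 292 to 415 in Tomato+ and 199 in Tomato- cells. The 11 SHF markers measured summed to 14676 to 16238 normalized reads in GFP+, 6268 to 6390 in Tomato+, 3557 in GFP- and 5853 in Tomato- cells. This list mixes posterior genes such as Tbx5 and Osr1 with Fgf10 and Tbx1, which the paper names as anterior markers. In GFP+ against Tomato+ cells limma called all 11 higher, with log2 fold changes from 0.46 to 3.60. The anterior markers were thus not higher in Tomato+ cells. Markers of other cell types moved with the groups. The 10 primitive erythroid markers summed to 944 to 1362 in GFP+, 113687 to 138332 in Tomato+, 279210 in GFP- and 263167 in Tomato- cells, and Gata1 and Klf1 were at 0 in some GFP+ libraries and in none of the others. The 10 neuronal markers summed to 4476 to 4830 in GFP+, 32072 to 32645 in Tomato+, 9143 in GFP- and 29033 in Tomato- cells. The 9 cardiomyocyte markers measured summed to 28911 to 34056 in GFP+, 4136 to 4651 in Tomato+, 16804 in GFP- and 2990 in Tomato- cells. Smaller sums were seen for the 8 endothelial and 7 endoderm markers measured. The endothelial sums were 1910 to 2120 in GFP+, 2734 to 3137 in Tomato+, 3026 in GFP- and 4346 in Tomato- cells. The endoderm sums were 2211 to 2541 in GFP+, 475 to 997 in Tomato+, 2256 in GFP- and 988 in Tomato- cells. The endoderm markers did not move together. In GFP+ against Tomato+ cells limma called 3 of the 7 up and 2 down and left 2 uncalled. Their log2 fold changes ran from -5.27 to 5.03, and Afp was at 0 in 1 GFP+ library. The part of these cells in the values of the imprinted genes was not tested, and in bulk RNA fewer cells of a type and less RNA per cell cannot be told apart.

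All but 1 of the 10 imprinted growth genes were higher in GFP+ than in Tomato+ cells, among them Igf2, H19 and Dlk1, by 2.88-fold to 3.63-fold. The exception was Cdkn1c, an inhibitor of the cell cycle, which was lower in GFP+ cells. With limma on log2(normalized reads + 1), 9 members were higher and 1 was lower at an adjusted p under 0.05, where 39.7% of all 16153 genes tested were called, 19.7% higher and 20.0% lower. The median log2 fold change was 0.77 over the members and -0.01 over all genes tested. The members were chosen with earlier results of these data known, so their counts beside these shares are a description. The libraries of the groups did not overlap for any member, which held for 54.6% of all genes. With replicates 1 and 3 averaged, 6 members were higher and 1 was lower, where 18.1% of genes were called, 8.89% higher and 9.25% lower. On the recovered reads, edgeR and DESeq2 both called 9 members higher and 1 lower, where edgeR called 38.8% of genes (19.1% higher and 19.6% lower) and DESeq2 44.4% (21.8% and 22.5%). When libraries were scaled to reads outside mitochondrial genes, the median of all genes moved to -0.14 and the share of calls that were higher in GFP+ cells went from 49.7% to 37.3%, and every member kept its direction.

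By the parent whose allele is known to be expressed in mouse, the 5 paternally expressed members (Igf2, Peg3, Dlk1, Plagl1 and Mest) were all higher in GFP+ cells, with a median log2 fold change of 0.71. Of the 5 maternally expressed members, 4 were higher (H19, Igf2r, Meg3 and Grb10) and 1 was lower (Cdkn1c), with a median of 0.82. Grb10 is the mixed case, since neurons of the mouse express it from the paternal allele.

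**Figure D1:**
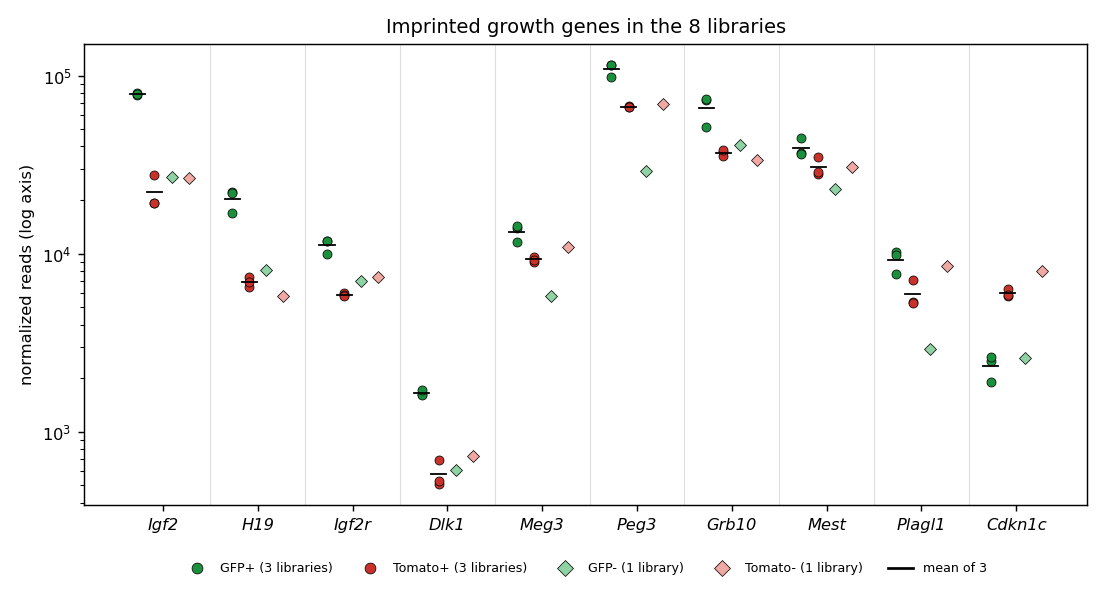
Normalized reads (log axis) of the 10 imprinted growth genes in the 8 libraries, with circles for positive cells, diamonds for the lone negative libraries and a black line for the mean of 3. The 3 GFP+ libraries lie above the 3 Tomato+ libraries for 9 genes and below them for Cdkn1c.

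Igf2 encodes insulin-like growth factor 2, the main growth factor of the mouse embryo, and lies on chromosome 7 (142650766 to 142666816, minus strand, GRCm38). Its level was 78184, 80266 and 78429 normalized reads in the GFP+ libraries and 19278, 27602 and 19382 in the Tomato+ libraries. The lone negative libraries held 26823 (GFP-) and 26614 (Tomato-). All GFP+ libraries stood far above the rest, and GFP-, Tomato- and Tomato+ replicate 2 lay close together. The means were 78960 ± 1138 and 22087 ± 4776 (SD, n = 3 each), and the log2 fold change was 1.86 (SE 0.13), a 3.63-fold difference (limma, adjusted p = 5.87e-05). Of all genes tested, 10.3% had a larger change. The coefficient of variation was 1.44% in GFP+ and 21.6% in Tomato+ cells. Another annotated gene on the same strand, Gm49394, shares 62.8% of the exon bases of Igf2, so reads of the 2 could be counted to either or to neither.

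H19, the non-coding RNA that shares enhancers with Igf2 and is expressed from the opposite parental allele, lies on the same chromosome (142575529 to 142578143, minus strand). It had 22218, 16831 and 21924 normalized reads in GFP+ cells and 7369, 6474 and 6966 in Tomato+ cells. The negative libraries held 8110 in GFP- and 5796 in Tomato- cells. The GFP+ libraries were again the highest, and GFP+ replicate 2 was the lowest of them. The log2 fold change was 1.54 (SE 0.12), from means of 20324 ± 3029 and 6936 ± 448 (SD, n = 3 each; limma, adjusted p = 7.04e-05).

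The ratio of Igf2 to H19 within a library does not depend on the size factor. It was 3.52, 4.77 and 3.58 in GFP+ cells and 2.62, 4.26 and 2.78 in Tomato+ cells. The ranges overlapped, with means of 3.96 ± 0.705 and 3.22 ± 0.907 (SD, n = 3). An exact permutation test gave p = 0.3 (two-sided, adjusted over 3 ratios 0.3). The smallest p that 3 against 3 libraries allow is 0.1, so no ratio could have passed this test. It does not decide whether the ratio differed between the groups. In both groups replicate 2 had the highest ratio. The negative libraries had ratios of 3.31 (GFP-) and 4.59 (Tomato-). Tomato- and replicate 2 of both groups were also the libraries with the most mitochondrial reads. The part of this in the ratio was not tested.

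Igf2r, the receptor that carries IGF2 to the lysosome and so removes it, lies on chromosome 17 (12682406 to 12769664, minus strand). Its levels were 11817, 9990 and 11756 normalized reads in GFP+ and 5985, 5884 and 5791 in Tomato+ cells, and 7025 in GFP- and 7406 in Tomato- cells. The Tomato+ libraries were the lowest of the 8. Igf2r differed by a log2 fold change of 0.92 (SE 0.08), from means of 11187 ± 1037 and 5886 ± 97.1 (SD, n = 3 each; limma, adjusted p = 0.000154). The gene overlaps the antisense RNA Airn, with 0 shared exon bases.

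The ratio of this ligand to its receptor was also compared within libraries. It was 6.62, 8.03 and 6.67 in GFP+ cells and 3.22, 4.69 and 3.35 in Tomato+ cells, and did not overlap between groups. The exact permutation p was 0.1, the smallest that 3 against 3 libraries allow (two-sided, adjusted over 3 ratios 0.15). The negative libraries had ratios of 3.82 (GFP-) and 3.59 (Tomato-), inside the Tomato+ range.

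Grb10 encodes an adaptor that binds the insulin and IGF1 receptors and dampens their signal (chromosome 11, 11930508 to 12038683, minus strand). It had 72701, 51593 and 74286 normalized reads in GFP+ cells, 37148, 35190 and 38381 in Tomato+ cells, 40614 in GFP- and 33766 in Tomato- cells. GFP+ replicate 2 lay well under the other GFP+ libraries yet above all remaining libraries. Grb10 rose by 0.82 on the log2 scale (SE 0.14), from means of 66193 ± 12669 and 36906 ± 1610 (SD, n = 3 each; limma, adjusted p = 0.0026).

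Cdkn1c encodes p57, a protein that binds cyclin-dependent kinases and holds cells out of the cycle (chromosome 7, 143458339 to 143461050, minus strand). It was the member that ran against the rest, with 2502, 1896 and 2631 normalized reads in GFP+ and 5793, 6345 and 5885 in Tomato+ cells. The log2 fold change was -1.37 (SE 0.13), which is 2.59-fold higher in Tomato+ cells, from means of 2343 ± 392 and 6008 ± 296 (SD, n = 3 each; limma, adjusted p = 0.000178). The negative libraries held 2594 in GFP- and 8007 in Tomato- cells, the first inside the GFP+ range and the second above all Tomato+ libraries. Of the exon bases of Cdkn1c, 30.7% are shared with the antisense gene Gm44732, and the amplified cDNA does not keep the strand.

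**Figure D2:**
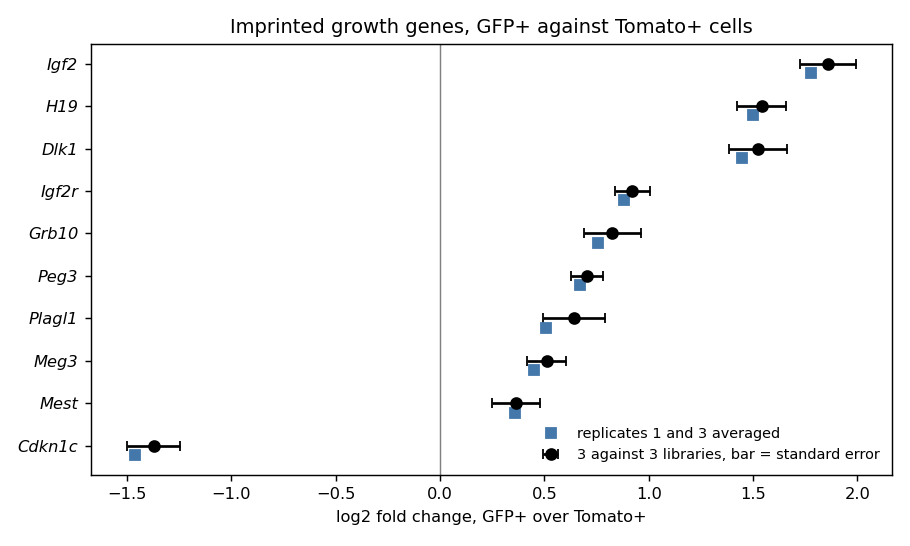
Log2 fold change of GFP+ over Tomato+ cells for the 10 genes, with the standard error over 3 against 3 libraries (black) and the value with replicates 1 and 3 averaged (blue squares). The values run from 1.86 for Igf2 to -1.37 for Cdkn1c, and no square lies across 0 from its black point.

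Dlk1 and Meg3 share a cluster on chromosome 12. Dlk1, a membrane protein related to the Notch ligands, is expressed from the paternal allele (109452823 to 109463336, plus strand). It had 1628, 1600 and 1707 normalized reads in GFP+, 509, 694 and 526 in Tomato+, 613 in GFP- and 726 in Tomato- cells. The GFP+ libraries were the highest, and the other 5 libraries lay close together. The log2 fold change was 1.53 (SE 0.14), from means of 1645 ± 55.3 and 576 ± 102 (SD, n = 3 each; limma, adjusted p = 0.000158).

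Meg3 is a non-coding RNA of the maternal allele (109541001 to 109571726, plus strand). Its levels were 14025, 11565 and 14257 normalized reads in GFP+, 9003, 9598 and 9247 in Tomato+, 5810 in GFP- and 10881 in Tomato- cells. The gap between the groups was narrow, since the lowest GFP+ library was 1.2-fold above the highest Tomato+ library. Meg3 rose by 0.51 on the log2 scale (SE 0.09), from means of 13283 ± 1492 and 9283 ± 299 (SD, n = 3 each; limma, adjusted p = 0.00386). With replicates 1 and 3 averaged the adjusted p was 0.0521. The genes share a control region, and the ratio of Dlk1 to Meg3 averaged 0.125 ± 0.012 and 0.0619 ± 0.00898 in GFP+ and Tomato+ libraries (SD, n = 3 each), without overlap (exact permutation p = 0.1, the smallest possible, adjusted over 3 ratios 0.15). The GFP- library had a ratio of 0.106, just under the lowest GFP+ ratio of 0.116. The Tomato- library had 0.0668, inside the Tomato+ range of 0.0565 to 0.0723. The negative libraries thus also differed between the lines.

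Peg3 encodes a zinc finger protein and is expressed from the paternal allele (chromosome 7, 6703892 to 6730431, minus strand). It ranked 7 among all genes by mean normalized reads over the GFP+ and Tomato+ libraries, without correction for its length of 13324 exon bases. It had 114840, 98779 and 114484 normalized reads in GFP+ and 67650, 66680 and 66382 in Tomato+ cells. Tomato- cells, with 69551, were close to the Tomato+ libraries, and GFP- cells held 29006, the lowest of the 8. The log2 fold change was 0.71 (SE 0.08), from means of 109368 ± 9172 and 66904 ± 663 (SD, n = 3 each; limma, adjusted p = 0.000393).

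Plagl1 encodes a zinc finger transcription factor (chromosome 10, 13060504 to 13131694, plus strand). It had 10240, 7678 and 9798 normalized reads in GFP+, 5360, 7112 and 5307 in Tomato+, 2926 in GFP- and 8496 in Tomato- cells. The Tomato- library lay above 1 of the GFP+ libraries. Plagl1 rose by 0.64 on the log2 scale (SE 0.15), from means of 9239 ± 1369 and 5926 ± 1028 (SD, n = 3 each; limma, adjusted p = 0.0110). The lowest GFP+ library was 1.08-fold above the highest Tomato+ library. The call was lost with replicates 1 and 3 averaged (adjusted p = 0.0539) and with the replicate number as a block (0.0518).

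Mest, a predicted hydrolase of the paternal allele (chromosome 6, 30723547 to 30748465, plus strand), had the smallest change. Its levels were 36857, 44681 and 36294 normalized reads in GFP+, 27996, 34982 and 28630 in Tomato+, 23095 in GFP- and 30841 in Tomato- cells. Tomato+ replicate 2 came close to the GFP+ range. The log2 fold change was 0.36 (SE 0.11), from means of 39277 ± 4688 and 30536 ± 3863 (SD, n = 3 each; limma, adjusted p = 0.0373). The call was lost with replicates 1 and 3 averaged (adjusted p = 0.127), with scaling to reads outside mitochondrial genes (log2 fold change 0.23, adjusted p = 0.146), and when any of GFP+ replicates 1, 2 and 3 (0.0604, 0.0788 and 0.0521) or Tomato+ replicates 1 and 3 (0.123 and 0.118) was left out. Exons of Copg2 on the opposite strand share 23.1% of the exon bases of Mest.

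The 10 genes together took 1.83%, 1.61% and 1.84% of the reads outside mitochondrial genes in GFP+ and 1.02%, 1.11% and 1.02% in Tomato+ cells. The GFP- library gave 0.764% (95% Wilson interval 0.761% to 0.768%) and the Tomato- library 1.03% (1.02% to 1.04%). These intervals cover counting error only. Peg3, Igf2, Grb10 and Mest made up 79.6% to 84.7% of these reads in every library. Igf2 alone made up 22.5% of them on average in GFP+ and 11.5% in Tomato+ cells, whereas Cdkn1c made up 0.663% and 3.14%.

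Levels of different genes were compared per kilobase of exon, with the exons of all annotated transcripts of a gene merged. The merged length was 18089 bases for Meg3, 5657 for Dlk1 and 2039 for Cdkn1c. A gene whose main transcript is much shorter than this length is understated, so the order depends on it. The exon bases that Igf2 shares with Gm49394 may also affect its place. In GFP+ cells Igf2 led with 13797 ± 199 normalized reads per kilobase, and Mest followed with 9956 ± 1188 (SD, n = 3 each). H19, Peg3 and Grb10 came next with means of 8262, 8208 and 7283, and their libraries overlapped. Igf2r, Plagl1 and Cdkn1c formed a lower level at 1202, 1182 and 1149, also with overlap, above Meg3 at 734 and Dlk1 at 291. In Tomato+ cells the order changed, with Mest at 7740, Peg3 at 5021, and Grb10 at 4061 and Igf2 at 3859 with overlapping libraries. Cdkn1c at 2946 and H19 at 2820 overlapped as well, and Plagl1 (758), Igf2r (632), Meg3 (513) and Dlk1 (102) followed. Igf2 thus went from the highest level per length in GFP+ cells to the fourth in Tomato+ cells, where it overlapped Grb10, and Cdkn1c from the eighth to the fifth.

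**Figure D3:**
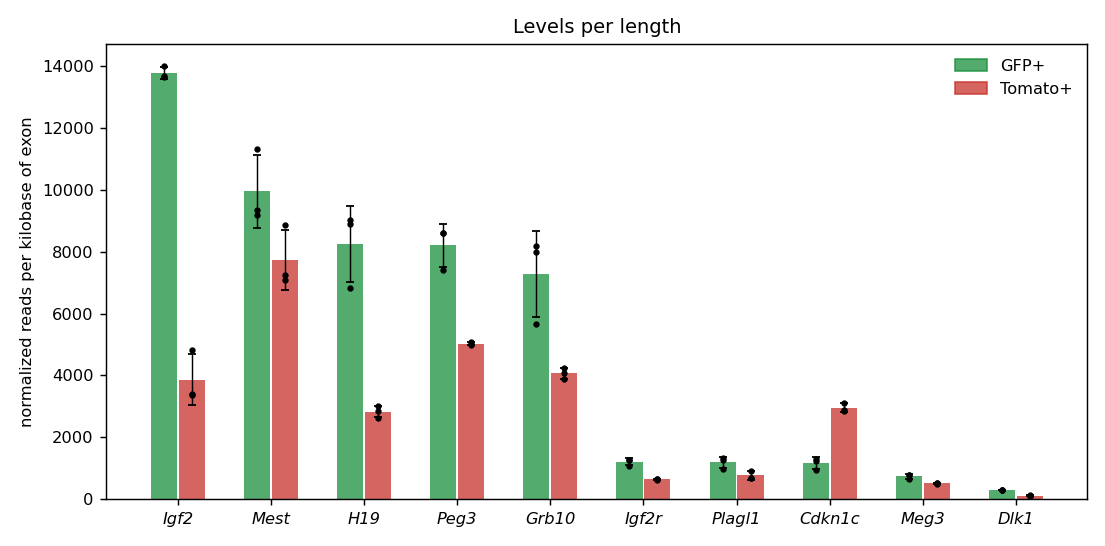
Normalized reads per kilobase of merged exon in GFP+ and Tomato+ cells. Bars are means from 0, error bars are SD over 3 libraries and points are libraries. Igf2 had the highest bar in GFP+ cells (13797) and Mest in Tomato+ cells (7740).

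The comparison with cells of the same dissection that lacked the reporter has no replicate on the negative side and no test. A gene was counted as set apart if all positive libraries differed from the negative library by 2-fold or more in the same direction. In the Hoxb1GFP line 5 of the 10 members, Igf2, H19, Peg3, Dlk1 and Plagl1, were set apart with higher levels in GFP+ cells, which held for 4.33% of all genes, and 0 were lower, which held for 3.69% (8.02% either way). The mean GFP+ level over the GFP- level was 3.77 for Peg3, 3.16 for Plagl1, 2.94 for Igf2, 2.68 for Dlk1, 2.51 for H19 and 2.29 for Meg3. It was lower for Mest (1.70), Grb10 (1.63) and Igf2r (1.59), and Cdkn1c was at 0.903.

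In the Mef2c-Cre;RosatdT line none of the 10 members was set apart, where 8.07% of all genes were higher and 6.77% lower by this rule, 14.8% together. The mean Tomato+ level over the Tomato- level ran from 0.698 for Plagl1 to 1.2 for H19. The GFP- and Tomato- libraries themselves held nearly the same level of Igf2, with a Tomato- to GFP- ratio of 0.992. They differed for Cdkn1c (3.09), Plagl1 (2.90), Peg3 (2.40) and Meg3 (1.87), all higher in Tomato- cells. The erythroid markers were high in both negative libraries and the neuronal markers in Tomato- but not GFP- cells. Mitochondrial reads made up 51.4% of the Tomato- and 32.7% of the GFP- library. The part of these markers and of this share in the ratios was not tested.

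**Figure D4:**
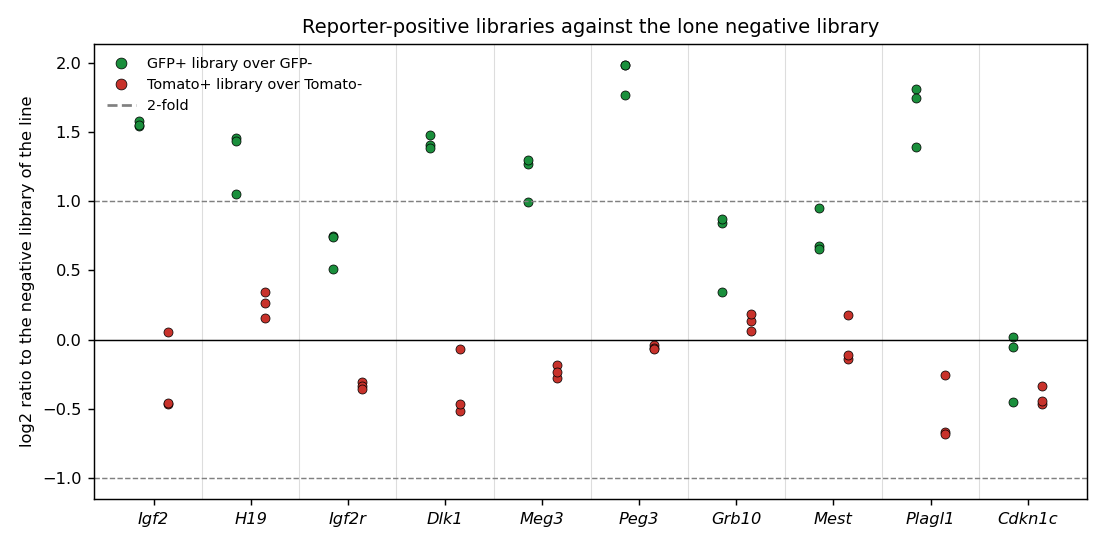
Log2 ratio of each positive library to the lone negative library of its line, green for GFP+ over GFP- and red for Tomato+ over Tomato-, with dashed lines at 2-fold. All 3 green points of Igf2, H19, Dlk1, Peg3 and Plagl1 lie above the upper dashed line, and no red point lies beyond either line.

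The neighbours of the members in their imprinted clusters were counted from a list of 30 genes, of which 18 were tested. Of these, 9 were higher and 4 lower in GFP+ cells and 5 did not pass, so 72.2% were called against 39.7% of all genes, and the median log2 fold change was 0.33 against -0.01 over all genes. The counts were 4 and 1 with replicates 1 and 3 averaged, where 18.1% of all genes were called. Ddc, the decarboxylase that makes dopamine from L-DOPA and lies beside Grb10, had the largest rise, with 336, 312 and 367 normalized reads in GFP+ and 81.9, 70.8 and 92.8 in Tomato+ cells. Its log2 fold change was 2.04 (SE 0.21; limma, adjusted p = 0.000287), and GFP- cells were at 323, inside the GFP+ range. Usp29, which lies next to Peg3, rose with it, by 0.94 (SE 0.10, adjusted p = 0.000404), and like Peg3 it was lowest in GFP- cells (1307 normalized reads, against 4523 ± 401 in GFP+ and 2352 ± 223 in Tomato+ cells). Igf2os, the antisense RNA at Igf2, rose by 1.5 (SE 0.18, adjusted p = 0.000583), and 98 of its exon bases lie in Igf2 exons, so their reads cannot be told apart.

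On chromosome 12 the further non-coding RNAs Rian and Mirg and the gene Rtl1 were higher in GFP+ cells along with Dlk1 and Meg3, by 0.87, 0.63 and 0.91 on the log2 scale (limma, adjusted p = 9.90e-05, 0.0112 and 0.0172). These 3 were chosen after their values were seen, and with replicates 1 and 3 averaged the adjusted p was 0.130 for Mirg and 0.113 for Rtl1. Begain, which lies at the other side of Dlk1, had a log2 fold change of -1.65 (SE 0.36, adjusted p = 0.0086), from 37.7 ± 11.3 and 119 ± 28.6 normalized reads (SD, n = 3 each), and its adjusted p was 0.104 with replicates 1 and 3 averaged.

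The remaining 3 of the 4 lower neighbours, also chosen after their values were seen, were Kcnq1ot1, Copg2 and Zfp264. Kcnq1ot1, the paternal non-coding RNA known to silence Cdkn1c on that allele, had 13994, 17134 and 13647 normalized reads in GFP+ and 25635, 29829 and 25909 in Tomato+ cells. It was lower in GFP+ cells as Cdkn1c was, with a log2 fold change of -0.87 (SE 0.11; limma, adjusted p = 0.000646), and the negative libraries also lay in the order of Cdkn1c, 16576 in GFP- and 42156 in Tomato- cells. Copg2, opposite Mest, had a log2 fold change of -0.43 (SE 0.12, adjusted p = 0.0239, and 0.106 with replicates 1 and 3 averaged). Zfp264, beside Peg3, was listed at 0 in all GFP+ libraries and at 57.3, 2.83 and 65.4 normalized reads in Tomato+ cells, and its adjusted p went from 0.0264 to 0.319 with replicates 1 and 3 averaged.

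**Figure D5:**
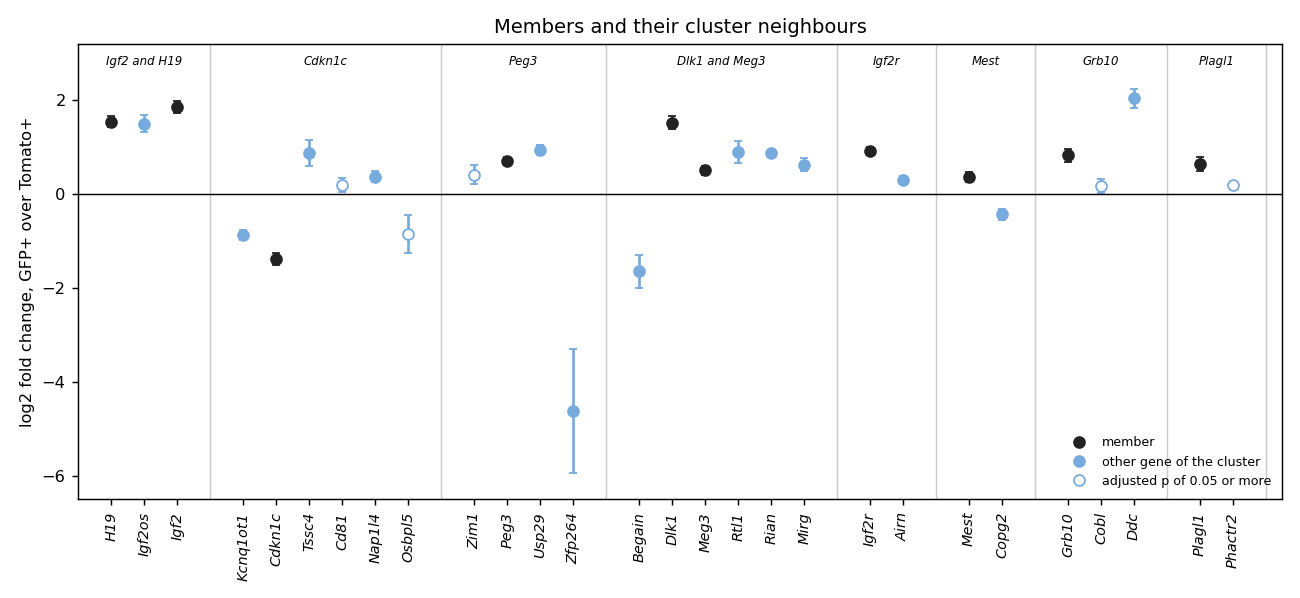
Log2 fold change of GFP+ over Tomato+ cells with its standard error for members (black) and other tested genes of their clusters (blue), with open symbols for an adjusted p of 0.05 or more. Cdkn1c and Kcnq1ot1 lie below 0 together, at -1.37 and -0.87, and Begain lies at -1.65 beside Dlk1 at 1.53.

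Of 28 imprinted genes of other clusters, 4 were higher, 4 were lower and 20 stayed short of the threshold (28.6% called, against 39.7% of all genes), and the median log2 fold change was 0.02. Averaging replicates 1 and 3 gave 2 higher and 1 lower (18.1% of all genes), and scaling to reads outside mitochondrial genes gave 3 and 7. Peg10, a paternally expressed gene derived from a retrotransposon and needed for the placenta, had 41116 ± 1192 normalized reads against 21050 ± 762 in Tomato+ cells (SD, n = 3 each), a log2 fold change of 0.97 (SE 0.06; limma, adjusted p = 3.74e-05). Slc38a4, an amino acid transporter, rose by 0.98 (SE 0.08, adjusted p = 9.12e-05). Blcap rose by 0.91 and Mkrn3 had a log2 fold change of -1.30 (adjusted p = 0.00418 and 0.0269). With replicates 1 and 3 averaged their adjusted p was 0.0535 and 0.0614, and that of Mkrn3 was also 0.0849 or 0.0896 when Tomato+ replicate 1 or 3 was left out. The other called genes of this list, named after their values were seen, were Asb4 (0.32 on the log2 scale), Nnat (-0.88), Nespas (-0.73) and Trappc9 (-0.65). Of these only Nnat passed with replicates 1 and 3 averaged.

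Among 29 tested genes of the IGF and insulin pathway, 9 rose, 5 fell and 15 stayed short of the threshold. That is 48.3% called, against 39.7% of all genes, and the median log2 fold change was 0.08. Averaging replicates 1 and 3 gave 6 higher and 2 lower, where 18.1% of all genes were called. The other IGF ligand moved against Igf2. Igf1 had 162, 425 and 184 normalized reads in GFP+ and 3343, 3948 and 3459 in Tomato+ cells, with 751 in GFP- and 2756 in Tomato- cells. Its log2 fold change was -3.93 (SE 0.33; limma, adjusted p = 0.000113), which is 15.3-fold higher in Tomato+ cells. Igf1r, the receptor through which both ligands signal, had 10494 ± 1798 and 9859 ± 220.0 normalized reads (SD, n = 3 each) with overlapping libraries (log2 fold change 0.08, SE 0.12, adjusted p = 0.659), and was named after its values were seen.

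The secreted IGF-binding proteins moved in both directions. Igfbp5 had 30050 ± 3289 and 10523 ± 696 normalized reads (SD, n = 3 each; log2 fold change 1.51, SE 0.10; limma, adjusted p = 3.61e-05), whereas Igfbp2 had 234 ± 6.56 and 442 ± 39.2 (log2 fold change -0.91, SE 0.15, adjusted p = 0.00256, and 0.0588 with replicates 1 and 3 averaged). Pappa, a protease that cleaves IGF-binding proteins, rose by 1.60 (SE 0.23, adjusted p = 0.00144), and GFP+ replicate 2 with 1921 normalized reads lay apart from replicates 1 and 3 with 1066 and 1042. Grb7, an adaptor of the Grb10 family, had 330 ± 27.7 and 35.6 ± 27 normalized reads (SD, n = 3 each; log2 fold change 3.42, SE 0.48, adjusted p = 0.00122). Further lower genes were Pik3r1 (-0.88), which encodes a regulatory subunit of PI3 kinase, and Insr (-0.33), the insulin receptor. Both and Igfbp2 were named after their values were seen, and Insr did not pass with replicates 1 and 3 averaged (adjusted p = 0.139).

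The other inhibitors of cyclin-dependent kinases did not pass the test. Of the 7 listed, 4 were in the table and were tested. Of these 4, 0 were called by limma, edgeR or DESeq2, which called 39.7%, 38.8% and 44.4% of all genes. An unadjusted p under 0.05 was seen for 0 of the 4. A list of 4 genes is too short to compare with these shares. Cdkn1b, which encodes p27, had 670 ± 95.7 and 786 ± 68.2 normalized reads (SD, n = 3 each; log2 fold change -0.23, SE 0.14; limma, adjusted p = 0.220), and it passed when GFP+ replicate 2 was left out (adjusted p = 0.0459). Cdkn1a, which encodes p21, had 143 ± 25.2 and 145 ± 7.28 normalized reads.

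Among 15 tested factors that set or keep methylation imprints, 6 were higher and 2 lower (53.3%, against 39.7% of all genes), and the median log2 fold change was 0.19. The counts were 3 and 1 with replicates 1 and 3 averaged (18.1% of all genes), and 4 and 4 with scaling to reads outside mitochondrial genes. Trim28, the corepressor that zinc finger proteins bring to imprinting control regions, had 8296 ± 565 and 3937 ± 106 normalized reads (SD, n = 3 each; log2 fold change 1.07, SE 0.08; limma, adjusted p = 5.18e-05), and 8222 in GFP- and 2753 in Tomato- cells. Zfp57, a zinc finger protein that recruits it, moved the other way with a log2 fold change of -0.92 (SE 0.18, adjusted p = 0.00587), and the other lower gene, named after its value was seen, was Tet2 (-0.33, adjusted p = 0.0263, and 0.292 with replicates 1 and 3 averaged). Uhrf1, which brings the maintenance methyltransferase to replicated DNA, rose by 0.48 (SE 0.09, adjusted p = 0.00456). Dnmt3b, a methyltransferase that sets new marks, rose by 0.66 (SE 0.17, adjusted p = 0.0168), and without GFP+ replicate 1 or 3 its adjusted p was 0.0602 or 0.0507.

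The pattern of each member over the 8 libraries was set against 10481 genes, as the root mean square difference of centred log2 levels. The gene most like Igf2 was Dlk1 (0.169), which lies on another chromosome. The 2 genes most like Dlk1 were Arhgap29 (0.166) and Igf2 (0.169). Igf2r was most like Ctnnd1, which encodes p120 catenin (0.0641), Meg3 was most like Foxp1, a forkhead transcription factor (0.0975), and Plagl1 was most like Rspo1, a Wnt agonist (0.114). Peg3 was most like Prkg1, a cGMP-dependent kinase (0.138), and Grb10 was most like Snrnp70, a splicing factor of the U1 particle (0.0675). H19, Mest and Cdkn1c were most like Hs3st3b1, Pdzrn3 and Podxl2, with differences of 0.154, 0.0665 and 0.0832. Among pairs of members, Igf2r and Grb10 were the closest (0.166) and Igf2 and Cdkn1c the farthest (1.52). The points of each comparison share the 8 libraries and their near copies, so these values are a description.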

How the data were processed

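The second heart field region of E9.5 embryos was dissected, pooled and sorted, and 2 ng of RNA per library was amplified with a kit that keeps no strand. The submitters' processing notes name bcl2fastq 2.17.1.14, STAR 2.5.2, HTSeq, R 3.3.4, DESeq2 and mm10. The paper's methods also describe RSEM and single-end reads for sorted cells, in conflict with the labels, which were taken as right, and the annotation behind the counts is not given in the sources used here. The deposited table holds, per library, a signal (normalized reads), which the authors got from raw reads and a size factor. Further deposited columns, with the authors' mean over libraries, log2 fold change, Wald score and p-values, were not used. Multiplying a column by 1 factor gave whole reads within 0.01 for 100.0% of values.

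The test of GFP+ against Tomato+ cells used limma 3.58.1 with a trend (R 4.3.3). It took log2(normalized reads + 1) of 16153 genes whose mean over 6 libraries was 10 or more. Tests were two-sided and p-values were adjusted by Benjamini-Hochberg. Fold changes are on that scale, which understates low genes. On the recovered reads, edgeR 4.0.16 called 6261 genes and DESeq2 1.42.0 called 7167, against 6410 for limma. Library pairs were compared by chi-square over genes with at least 20 reads. Genes set apart from a negative library needed 50 normalized reads on the side with more. Of the symbols, 15768 (96.7%) matched GENCODE M21, which gave coordinates and exon lengths on GRCm38. Scripts were tested on simulated data. The simulated libraries were independent, without near copies, so this test checks the code and not the error rate in these data.

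The members and lists were chosen with earlier results of these data known. Besides the 10 members, each list names up to 4 called genes, ranked by the size of the log2 fold change, that had no overlap and reached a mean of 100 normalized reads in either group, or the 2 of highest mean where none met this. For each member the 2 most alike genes were found, with Gm and Rik symbols left out. A counted gene of the IGF list is not reported here by name. Alternatives covered the pseudocount, filter, scaling, tool, averaging, block and each replicate left out.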

Additional observations from a re-analysis of the deposited data

Results flagged for a closer look

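For 5 members and 3 other named genes, every positive library of a line lay on 1 side of its lone negative library and every positive library of the other line lay on the other side. The difference was not tested, since each line has 1 negative library. Of all 16302 genes, 11.6% had GFP+ above GFP- with Tomato+ below Tomato-, and 12.1% had the reverse. The values are the log2 ratio of positive to negative cells in the Hoxb1GFP line minus that in the Mef2c-Cre;RosatdT line. Among the members the difference was 2.18 for Plagl1, 1.97 for Peg3, 1.76 for Dlk1, 1.42 for Meg3 and 1.0 for Igf2r. Most of it lay in the Hoxb1GFP line, where their log2 ratios ran from 0.67 for Igf2r to 1.91 for Peg3. In the Mef2c-Cre;RosatdT line they ran from -0.52 for Plagl1 to -0.06 for Peg3. Among the neighbours it was 3.46 for Igf2os, which had 89.5 normalized reads in GFP- cells, and -1.98 for Begain. For Igf1 it was -1.92.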

How the results depend on the processing

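Of the 17 alternatives, every one kept the direction of all 10 members, and H19, Igf2, Igf2r, Cdkn1c, Peg3, Dlk1 and Grb10 passed in each. Meg3 passed in 16, Plagl1 in 15 and Mest in 10. With replicates 1 and 3 averaged, 1436 genes were higher and 1493 lower, against 3186 and 3224; this fit has fewer samples. Leaving out 1 replicate gave 2068 to 4038 higher and 2134 to 3875 lower genes, with the low counts without a replicate 1 or 3, and 8 to 9 members higher and 1 lower. The same averaging gave 4 higher and 1 lower cluster neighbours in place of 9 and 4, 2 and 1 other imprinted genes in place of 4 and 4, 6 and 2 IGF genes in place of 9 and 5, and 3 and 1 methylation factors in place of 6 and 2. Leaving out 1 replicate gave 4 to 11 and 2 to 4 cluster neighbours, 3 to 5 and 1 to 6 other imprinted genes, 6 to 11 and 3 to 5 IGF genes, and 3 to 8 and 1 to 3 methylation factors. Scaling to reads outside mitochondrial genes gave 3 higher and 7 lower other imprinted genes and 4 higher and 4 lower methylation factors. Deviations of same-numbered libraries correlated at r of at most 0.0228, and not every library correlated best with its own number. This does not settle whether the replicate numbers pair the libraries. Replicate 2 of both groups had more mitochondrial reads (42.4% in GFP+ and 43.7% in Tomato+) than replicates 1 and 3 (32.8% to 34.5%). With the replicate block in limma 2982 genes were higher and 3009 lower, and among the members only Plagl1 (adjusted p = 0.0518) was lost. At 1.5-fold in place of 2-fold, 7 members were set apart above GFP- (8.21% of all genes), and 4 were with scaling to reads outside mitochondrial genes (3.90% of all genes). The causes of these shifts were not tested. The near copies leave few independent libraries, the negative groups have 1 each, and amplification from 2 ng limits precision beyond read depth.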
